A study of Homo sapiens with 3 samples.

Results

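MAP3K15 and VPS13D each carried one of the strongest ARID1B peaks of HEK293FRT cells inside the gene, far from its annotated ends. Chromatin immunoprecipitation followed by sequencing (ChIP-seq) against ARID1B had been made in the human line HEK293FRT, derived from HEK293 embryonic kidney cells, for which the labels list neither a treatment nor a genotype. The series held 3 samples, 2 ARID1B ChIP replicates and 1 input, and no peak list of the input was analysed here. Nothing in the labels tells if both replicates were cultured separately, so the spread between them may be technical. Members were all peaks inside the bodies of both genes or within 100 kb of them: 4 of 1792 peaks in replicate 1 and 4 of 1820 peaks in replicate 2. The 2 genes were chosen by the peak scores of these same lists, so scores, ranks, widths and replicate agreement are given as a description and nothing was tested.

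ARID1B belongs to the BAF (SWI/SNF) remodelling complexes, to which it adds a domain that binds DNA, and which slide and evict nucleosomes at promoters and at enhancers, many of which lie inside genes. MAP3K15, also named ASK3, is a kinase of the apoptosis signal-regulating family, whose members act upstream of the stress-activated kinases JNK and p38. In kidney cells ASK3 responds to osmotic stress. VPS13D is a very large protein that moves lipids between membranes at organelle contacts and is needed for normal mitochondria and peroxisomes. A peak in these lists marks a stretch of chromatin that was called in the ARID1B ChIP. Whether ARID1B was bound there was not tested, and the antibody and use of the input are not stated. The lists do not show whether the gene around a peak is transcribed or regulated through it.

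The annotated transcription start of VPS13D is printed to show the promoter that neither list marked, although the gene held 3 peaks. It lies on the plus strand at chr1:12229780-12230079 (GRCh38.p14, RefSeq), and the nearest peak to it was 203 kb away in both replicates. The window runs from 250 bases before the start to 50 bases after it. Capitals mark the bases from the start onward.

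VPS13D: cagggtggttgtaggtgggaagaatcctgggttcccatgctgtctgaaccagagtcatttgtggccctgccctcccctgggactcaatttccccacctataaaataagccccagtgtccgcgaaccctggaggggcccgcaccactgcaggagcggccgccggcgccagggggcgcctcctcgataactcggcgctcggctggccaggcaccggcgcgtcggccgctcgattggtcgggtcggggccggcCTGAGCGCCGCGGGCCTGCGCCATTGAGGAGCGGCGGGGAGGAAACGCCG

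The window was 68.7% G or C, where the median of 35116 RefSeq promoter windows was 58.7%. On either strand it held 0 matches to the AP-1 letters TGANTCA, found in 7.71% of those windows, 0 to the TEAD letters GGAATG, found in 14.0%, and 0 to the GC box GGGCGG, found in 44.95%. These counts say only that the letters do not occur in this window. The sequences under the MAP3K15 and VPS13D peaks were not used here.

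MAP3K15 (chromosome X:19360059-19515508, hg38, 155 kb) held a single peak in each list. In replicate 1 it spanned X:19451959-19452450 with a score of 1537, and in replicate 2 X:19451957-19452459 with a score of 1642. The score is the authors' own whole number per peak, and its scale is not given in the sources used here, so ratios of scores are not ratios of enrichment. It was the highest score of both lists, whose medians were 74 and 75. Its centre lay 92.1 kb from the lower-coordinate end of the gene and 63.3 kb from the other end, at 59.3% of the body. The peak overlapped no other annotated gene, and exons and introns were not told apart. The start of MAP3K15 itself was not used here. Among the starts of other genes that have a RefSeq promoter window, the nearest was that of PDHA1, 108 kb away. PDHA1 is a subunit gene of the mitochondrial pyruvate dehydrogenase. The pseudogene EIF5P2, at X:19496366-19497170 and without such a window, lay closer to the peak.

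VPS13D (1:12230030-12512047, 282 kb) held 3 peaks in each list, all inside the body. The first region lay at 1:12433374-12433771, with scores of 43 in replicate 1 and 109 in replicate 2. The second lay at 1:12454746-12455054, with scores of 127 and 107. The third, at 1:12478048-12478696, was the lead, with scores of 586 and 863. The lead was thus above both neighbours in each replicate, while the order of the neighbours differed between the replicates.

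All 3 regions lay in the later part of the gene in the direction of transcription, with centres 204, 225 and 248 kb from the annotated start (replicate 1). These places correspond to 72.2%, 79.7% and 88.1% of the body. The centres were 21.3 kb and then 23.5 kb apart, in replicate 1 as in replicate 2. The lead lay 33.7 kb from the annotated end, and the nearest start in the promoter table was that of LINC02766, a long non-coding RNA gene downstream, 46.9 kb away. None of the 3 overlapped SNORA59A, a small nucleolar RNA gene nested near the end of VPS13D.

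**Figure D1:**
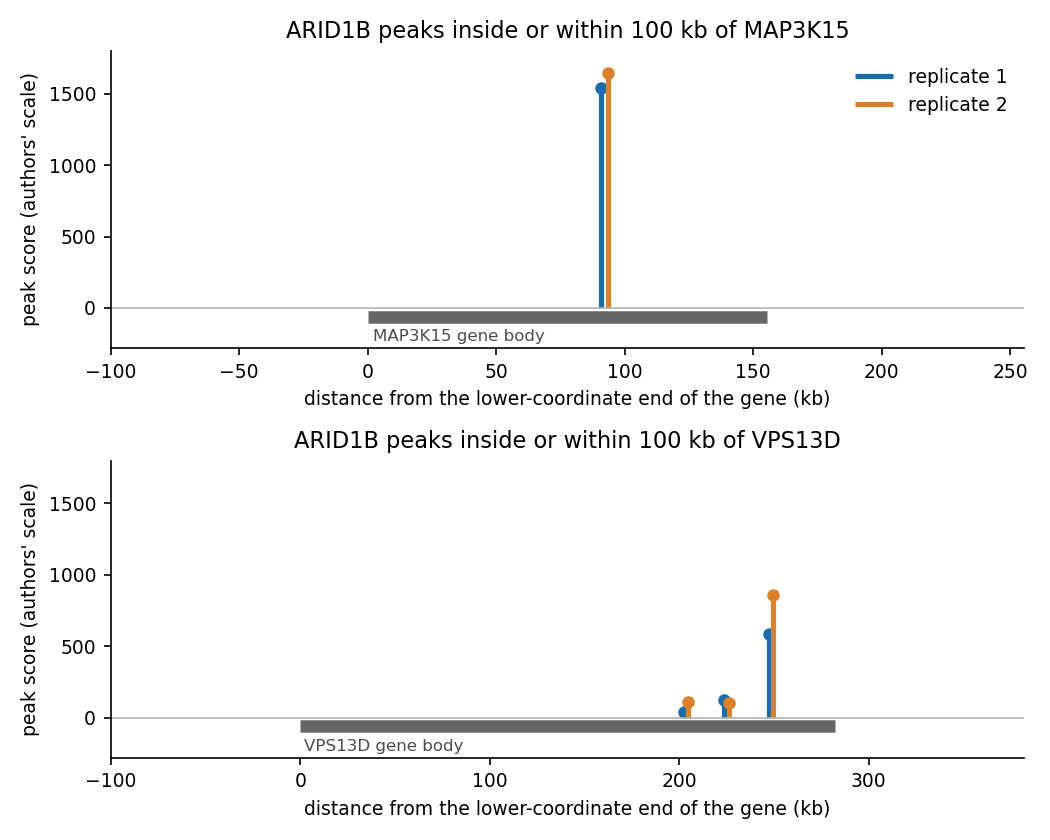
Peak score (authors' scale) against the distance in kb from the lower-coordinate end of MAP3K15 (upper panel) and VPS13D (lower panel), with the gene body as a grey bar and the replicates drawn side by side. MAP3K15 shows 1 peak at 1537 and 1642 and nothing else within 100 kb. VPS13D shows its lead at 586 and 863 beyond weaker peaks that scored between 43 and 127.

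Inside the bodies, 2.8% of 19866 protein-coding genes held at least 1 region shared by the replicates, and 0.151% held at least 3, as VPS13D did. Longer genes have more room for a peak, and length was not corrected for. The other annotated genes of the windows held no peak in either list. Around MAP3K15 these were 3 genes, among them PDHA1 and SH3KBP1, an adaptor gene of receptor endocytosis. Around VPS13D they were 14 genes, among them TNFRSF1B and TNFRSF8, receptor genes of the tumour necrosis factor family, and DHRS3, a retinal reductase gene.

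Apart from the members, no peak lay within 388 kb of either gene body. Toward lower coordinates the nearest peak outside the MAP3K15 window lay 388 kb from the gene in replicate 1 and 1550 kb from it in replicate 2, with a score of 75 in each. Toward higher coordinates it lay 4033 kb away in both, with scores of 116 and 229. From the peak itself the distance to the closest other peak was 480 kb in replicate 1 and 1642 kb in replicate 2. This is the shorter of the gaps on either side. The median of all single gaps between adjacent peaks was 507 kb in replicate 1 and 524 kb in replicate 2, which is not a like measure. A median distance to the closest peak was not computed over all peaks. The 90th percentile of the gaps was 4147 kb in replicate 1 and 4108 kb in replicate 2. Toward higher coordinates the gap from the MAP3K15 peak was 4096 kb in both. For the longer stretches that follow, no like value over all peaks was computed. Between the closest peaks on either side, the stretch in which MAP3K15 held the only peak measured 4.58 Mb in replicate 1 and 5.74 Mb in replicate 2. The stretch in which VPS13D held the only peaks measured 4.02 and 4.24 Mb. The closest peaks outside the VPS13D window lay 1051 and 1271 kb from the gene toward lower coordinates, with scores of 53 and 50. Toward higher coordinates they lay 2689 kb away in both replicates, with scores of 81 and 62.

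The MAP3K15 peak was ahead of its chromosome by a wide margin. Chromosome X carried 36 peaks in replicate 1 and 39 in replicate 2, and the next highest scores there were 397 and 349. The MAP3K15 score was 3.87 and 4.70 times as high. By score the VPS13D lead was likewise first among 196 and 212 peaks of chromosome 1, but by 1.35 and 1.94 times, over a peak scoring 434 and 444. In the whole lists the VPS13D lead ranked 11 in replicate 1 and 6 in replicate 2. Divided by width, it had 0.901 and 1.39 times the highest other value of chromosome 1. Per base it was thus not first there in replicate 1. For MAP3K15 on chromosome X the same ratio was 3.88 and 4.62.

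Within its own window the VPS13D lead scored 4.61 times its strongest neighbour in replicate 1 and 7.92 times in replicate 2. Among protein-coding genes with at least 2 peaks in the same window the median of this ratio was 1.74 (585 genes) and 1.91 (797 genes). It was lower than that of VPS13D in 90.6% and 96.1% of these genes. Neighbouring genes share peaks, and VPS13D was chosen for its lead, so these shares are a description. Per base the contrast was smaller: divided by width, the lead was on average 2.95 times its nearest rival in the window, against 6.27 times on the score alone. MAP3K15 had no neighbour to compare.

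The 2 leads differed in width by more than each did between replicates. The MAP3K15 peak was 492 bp wide in replicate 1 and 503 bp in replicate 2, and by width it ranked 161 and 177. The VPS13D lead was 607 and 644 bp wide and ranked 57 and 54. List medians were 290 and 300 bp. Among peaks within 10% of the width of the MAP3K15 peak (148 and 149 peaks) the median score was 148 in replicate 1 and 165 in replicate 2, and the highest other score was 707 and 776. The MAP3K15 peak therefore scored 10.4 and 9.95 times the median of peaks as wide as itself. For the VPS13D lead this ratio was 2.84 and 5.46, and other peaks as wide reached 1210 and 1089.

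The weaker VPS13D peaks were narrower than their lead in both replicates. The first region was 270 bp wide in replicate 1 and 398 bp in replicate 2, and the second 309 and 283 bp. Against peaks of like width the first scored 0.619 and 0.905 times the median, and the second 1.49 and 1.47 times. The 3 members thus spread from below to above the middle of their width class. Across all peaks the score followed the width with a Spearman rho of 0.634 (1792 peaks) and 0.591 (1820 peaks), a description over peaks of the same library.

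**Figure D2:**
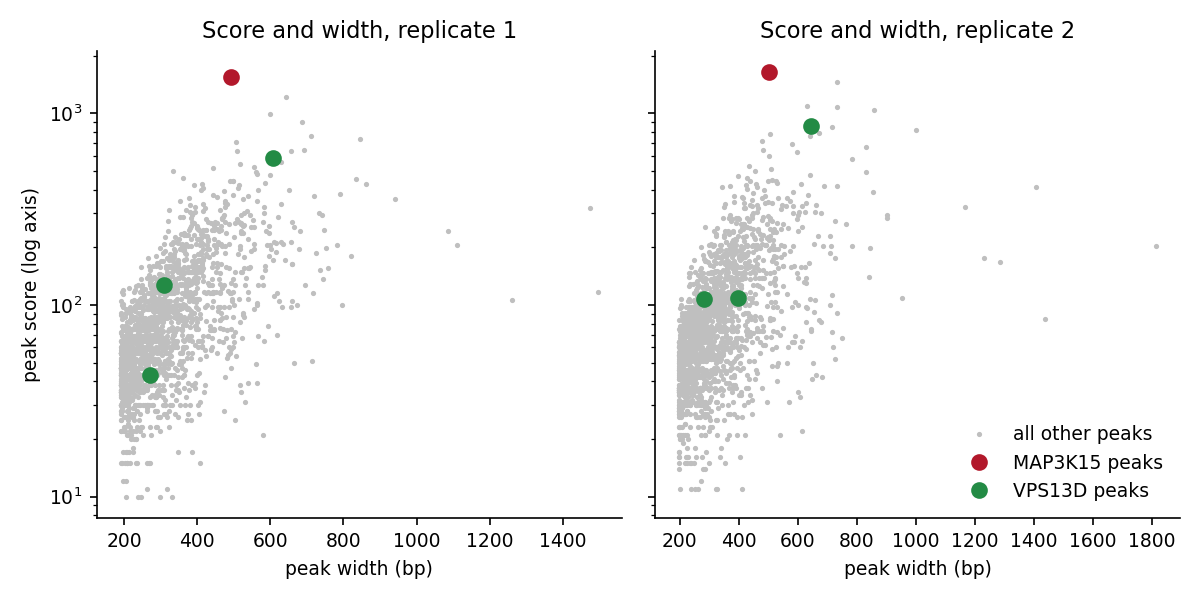
Peak score (log axis) against peak width in bp for every peak of replicate 1 (left) and replicate 2 (right), with MAP3K15 in red and VPS13D in green. The MAP3K15 peak sits above the cloud at 492 and 503 bp, while the VPS13D lead sits at its upper right edge and the other VPS13D peaks lie within it.

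The MAP3K15 peak had nearly the same boundaries and score in both replicates. Its start differed by 2 bp and its end by 9 bp, and the replicate 1 peak lay wholly inside that of replicate 2. The overlap was 97.8% of the joint span, where the median over 1305 peaks that paired one to one was 79.7%. Strong peaks in general agreed better: among 31 pairs within the 50 highest scores of both lists the median overlap was 90.4% and the median summed shift of both edges 52 bp. Among the 20 pairs that rank highest, 2 overlapped by more than MAP3K15 (98.9% and 98.5%). For MAP3K15 the summed shift, 11 bp, was exceeded by 97.6% of the 1305 pairs, whose median was 74 bp. The score in replicate 2 was 1.07 times that in replicate 1, and 88.3% of pairs had a larger fold between replicates. A larger overlap share is easier to reach for a wider peak, which the pairs were not corrected for.

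The VPS13D lead had a start that differed by 5 bp and an end that differed by 42 bp, with an overlap of 92.8% of the joint span. Its score was 1.47 times as high in replicate 2 as in replicate 1. This fold was close to the median fold between replicates of 1.40 in either direction over all pairs. Its second region agreed more closely in score, at 0.843 times, with edges that differed by 16 and 10 bp.

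The first VPS13D region, the weaker neighbour in replicate 1 but not in replicate 2, differed most between replicates among the 4 regions. Its start differed by 116 bp and its end by 12 bp, and its overlap was 67.8% of the joint span. Its score was 2.53 times as high in replicate 2, and its rank was 1425 in replicate 1 and 522 in replicate 2. Among 622 pairs with a mean score from 60.8 to 140, which is within 20% of the mean scores of the weaker VPS13D regions, 6.11% had a larger fold between replicates. For the second region this share was 71.5%.

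All 4 members of each list had a partner in the other list, where 73.5% of replicate 1 peaks and 72.4% of replicate 2 peaks had one. For the first VPS13D region the share of like-scoring peaks with a partner differed between the lists. In replicate 1, where it scored 43, 93 of 175 peaks within 10% of that score were shared (53.1%). In replicate 2, where it scored 109, 133 of 148 were shared (89.9%). For the second region, at scores of 127 and 107, 146 of 161 peaks (90.7%) and 156 of 177 (88.1%) were shared. Around the VPS13D lead all 6 peaks of like score in replicate 1 and all 4 in replicate 2 were shared, the lead included. No other peak came within 10% of the MAP3K15 score in either list. Members were chosen from shared regions seen earlier, so their sharing is no separate result.

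**Figure D3:**
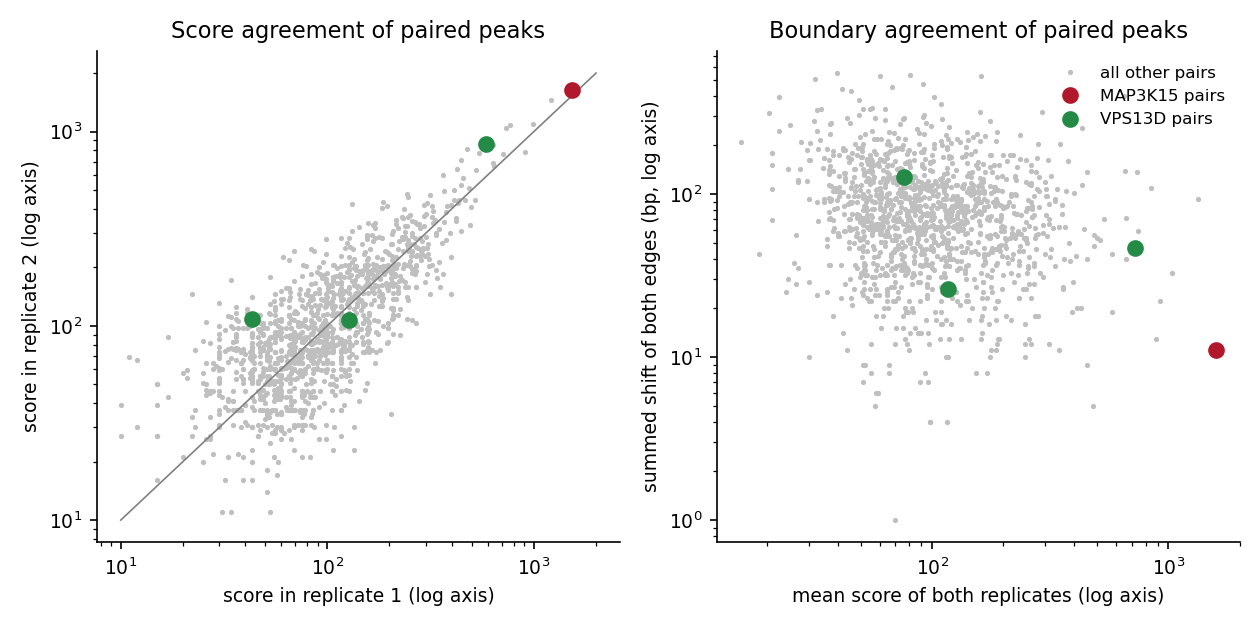
Left, score in replicate 2 against score in replicate 1 (log axes) for 1305 paired peaks, with the line of equal scores; right, summed shift of both peak edges in bp against the mean score (log axes). MAP3K15 (red) lies near the line with a shift of 11 bp. The VPS13D regions (green) have shifts of 128, 26 and 47 bp, and the first of them (43 and 109) lies farthest above the line.

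Beside the 20 shared peaks that rank highest in both lists, ordered by the poorer of their ranks, MAP3K15 came first and VPS13D eighth, level with one other peak. These 20 had median widths of 580 and 637 bp, so the MAP3K15 peak was narrower than most of them, ranking 4 and 5 from the narrowest. Per 100 bp of peak it scored 312 in replicate 1 and 326 in replicate 2, against medians of 99.8 and 120 among the 20. The next highest, at SP2, a transcription factor gene, had 188 and 199. The VPS13D lead had 96.5 and 134, close to the medians. Of the 20, 18 scored higher in replicate 2, both leads among them, with a median ratio of 1.21. In 11 of the 20, MAP3K15 among them, no other peak lay within 100 kb in either list. VPS13D, with 2 others in each list, was not one of these.

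**Figure D4:**
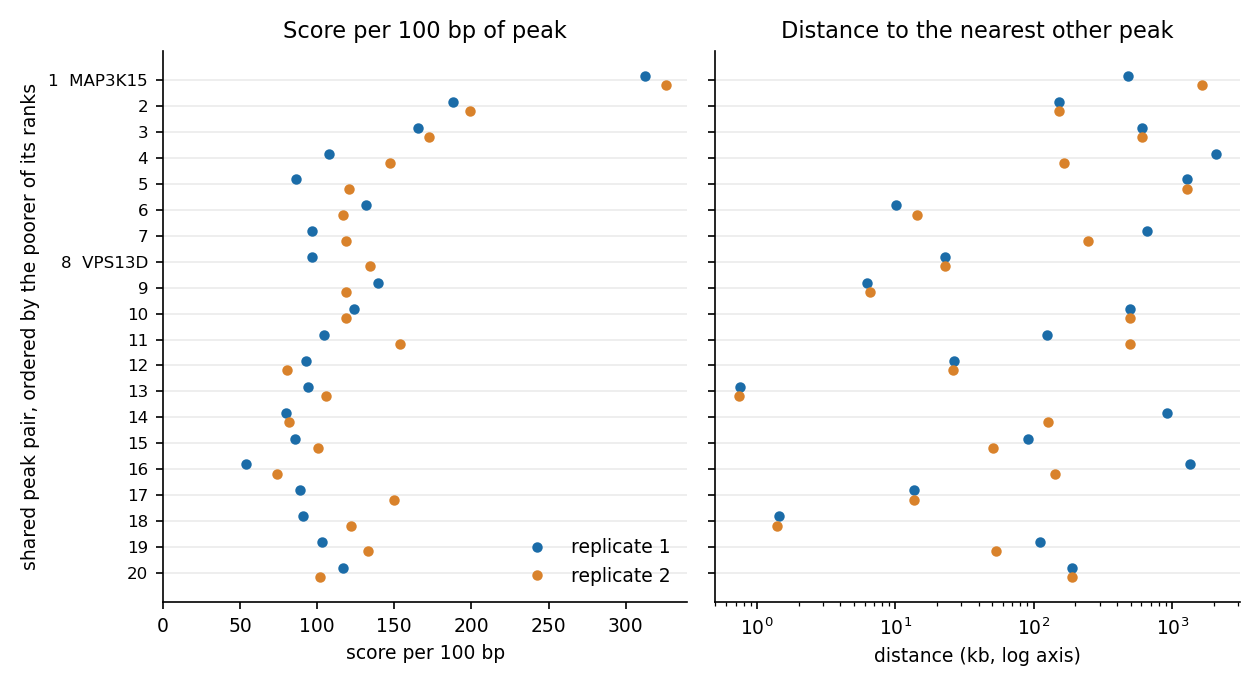
The 20 shared peaks that rank highest in both lists, from first (top) to twentieth, with the score per 100 bp of peak (left) and the distance in kb to the nearest other peak of the same list (right, log axis) for each replicate. MAP3K15, at 312 and 326 per 100 bp, lies apart from the other 19. VPS13D lies among them, with its nearest peak 22.99 kb away in replicate 1.

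The direct relatives of both genes were then read in the same way. MAP3K5 and MAP3K6, the genes of ASK1 and ASK2, had no peak in either list inside the body or within 100 kb. Their nearest shared regions lay 872 and 575 kb from the gene bodies. VPS13A and VPS13C had none either, with the nearest shared regions at 515 and 1200.4 kb. VPS13B held 2 shared regions inside its body. The one at 8:99072465-99072796 scored 47 in replicate 1 and 64 in replicate 2, and the other, whose replicate 1 peak spanned 8:99323852-99324198, scored 149 and 103. Both scored lower than the VPS13D lead in each replicate, but that lead was chosen for its high score. The weaker VPS13D regions scored 43 and 109, and 127 and 107.

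Of 26 genes of the ASK and stress kinase pathway, 3 (11.5%) had a shared region in or within 100 kb of the body, where 11.8% of 19866 protein-coding genes had one. Besides MAP3K15 these were TRAF2, an adaptor of tumour necrosis factor receptors that can activate ASK1, and MAP2K7, a kinase that activates JNK. The MAP2K7 region lay 73.6 kb away at EVI5L, with scores of 632 and 689. Without MAP3K15 the count was 2 of 25 (8.0%). With each list taken alone, 6 of the 26 genes had a peak in replicate 1 and 6 in replicate 2. Without MAP3K15, 5 of 25 had a peak in replicate 1 and 5 in replicate 2. Over all 19866 protein-coding genes, 2802 had one in replicate 1 and 3298 in replicate 2. Besides the 3 genes above, 6 had peaks in only 1 list. No share over all genes was computed for this, so these 6 are only listed. In replicate 1 these were MAP2K6, a p38 kinase (score 42), MAPK10, which encodes a JNK (75), and WNK1, a kinase of ion transport with which ASK3 interacts (43). In replicate 2 they were DAXX (46), ATF7, a stress-responsive transcription factor gene (31), and DUSP1, a phosphatase gene of MAP kinases (24).

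The TRAF2 region is the pathway region that met an annotated promoter window in both lists, so its sequence is printed. The peaks spanned 9:136886260-136886476 in replicate 1 and 9:136886248-136886480 in replicate 2, with scores of 92 and 128. The window is chr9:136886266-136886565 on the plus strand (GRCh38.p14, RefSeq), and capitals mark its first 211 bases, which lay inside both peaks. The transcription start of this window follows its first 250 bases, so both peaks ended before it. This start is internal to the gene, as the annotated TRAF2 body begins at 9:136881958.

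TRAF2: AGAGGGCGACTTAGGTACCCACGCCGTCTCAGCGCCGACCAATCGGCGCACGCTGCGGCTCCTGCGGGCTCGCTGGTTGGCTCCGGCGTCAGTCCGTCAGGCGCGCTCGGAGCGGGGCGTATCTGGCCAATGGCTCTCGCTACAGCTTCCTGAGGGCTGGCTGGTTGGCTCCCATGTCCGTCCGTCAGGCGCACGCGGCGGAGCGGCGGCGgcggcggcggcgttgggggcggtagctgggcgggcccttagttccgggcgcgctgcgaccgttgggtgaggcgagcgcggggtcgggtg

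This window was 73.3% G or C and held 2 matches to the GC box, both outside the capitals, and 0 to the AP-1 and TEAD letters.

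Of 17 genes of the VPS13 family, other bridge-type lipid carriers and their partners at contact sites, 5 (29.4%) had a shared region in or within 100 kb of the body, where 11.8% of all protein-coding genes had one. Without VPS13D the count was 4 of 16 (25%). VPS13B was one of them. RHOT1 and RHOT2 encode the Miro GTPases of the mitochondrial surface, to which VPS13D binds. Their regions lay 73.3 kb away with scores of 124 and 129, and 78.1 kb away with scores of 26 and 44. VAPB, a tether gene of the endoplasmic reticulum, had one 79.5 kb away with scores of 98 and 235. Inside the body itself only VPS13D and VPS13B of this list had a shared region, 2 of 17 (11.8%), where 2.8% of all protein-coding genes had one. VPS13D was chosen for its peak inside the gene, and without it the count was 1 of 16 (6.25%). VPS13B and VPS13D are long genes, and length was not corrected for. No test was made of either list.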

How the data were processed

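The labels name formaldehyde fixation, sonication, PCR amplification and size selection. The build was hg38 and the tools named were MACS2 2.1.2, Bowtie2 2.3.4.1 and bcl2fastq 2.20.0.422, per the submitters' processing notes; for the settings, peak threshold, duplicate handling, antibody and use of the input, nothing is stated there. For each ChIP replicate the authors deposited a peak list with a whole-number score per peak, of unstated scale. The lists hold no read counts, so depth is unknown; duplicate reads, if kept, would raise scores.

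Starts were counted from 1. Genes came from a RefSeq table of GRCh38.p14, restricted to primary chromosome sequences (58961 genes). Peaks overlapping by at least 1 bp were shared. Peaks of both genes and of the listed genes were taken within 100 kb of the body; 1 symbol of 18 in the lipid list is a synonym of another and was counted once. Named genes were the members, genes overlapped by or nearest to their peaks, direct paralogs and list genes with a shared region; other genes of the windows and list genes with peaks in 1 list were named after their values were seen. Members and lists were chosen with earlier results of these data known. Overlap was checked against a copy of the replicate 1 list in which a random part was shifted slightly and the rest moved away. For ranking, only the place of the highest score was checked. Alternatives were other windows, overlap rules, score cuts and rankings. Python 3.11.15, pandas 2.3.3.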

Additional observations from a re-analysis of the deposited data

How the results depend on the processing

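Leaving aside the values with 1 replicate left out, 40 recomputed values were compared, and 31 stayed within the limit set. This limit was the spread between replicates, or 1.5 times for counts. For the score ratio of replicate 2 over replicate 1 it was instead the standard deviation of that ratio over all paired peaks (0.684). The list medians, 74 and 75, were nearly equal, so dividing scores by them could hardly move this ratio. The counts of peaks and of shared regions at MAP3K15 and VPS13D were the same for windows of 0, 50 and 200 kb, and the counts of shared regions also under 50% reciprocal overlap or centres within 200 bp; with peaks at or above the list median score, VPS13D had 2 shared regions where it had 3 in the full lists. The mean rank of the VPS13D lead, 8.5, was 13 by score per width and 1 within its chromosome. Width percentiles, 90.6 for MAP3K15 and 96.9 for the VPS13D lead, were 84.1 and 94.5 among peaks at or above the list median score. The VPS13D lead was on average 6.27 times its next peak in the window, 2.95 times by score per width and 1.65 times against the rest of its chromosome, an alternative chosen after seeing the data. With 1 replicate left out the ratio was 4.61 to 7.92, the VPS13D rank 6 to 11, its width percentile 96.8 to 97.0 and that of MAP3K15 90.3 to 91.0. The stress kinase count, 3, was 2 in windows of 0 and 50 kb, 5 in a 200 kb window and 6 from either list alone. The lipid transfer count, 5, was 2 in windows of 0 and 50 kb, 5 in a 200 kb window and 5 to 6 from either list alone. In windows of 0, 50 and 200 kb, 2.8%, 7.54% and 19.6% of protein-coding genes had a shared region. With 1 list alone, 2802 of 19866 protein-coding genes had a peak within 100 kb in replicate 1 and 3298 in replicate 2. No ratio to a next peak could be computed for MAP3K15, which had 1 peak in every window. No paired analysis was possible because 2 replicates of 1 group were deposited as peak lists and no groups were compared.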
